A study of Drosophila melanogaster with 33 samples.

Results

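The 9 genes described here encode enzymes that build very long chain lipids in Drosophila melanogaster. They are the elongase genes bond, CG5278 (now sit), CG31522, CG31523, Baldspot and CG2781 (now Elovl7), the fatty acid synthase gene CG17374 (now FASN3), and the fatty acyl-CoA reductase family genes CG8303 and CG8306. They were taken by symbol from 16727 genes in the count tables, and all 9 symbols were found. They were chosen by their measured change in discs with yki3SA clones against discs with control clones (the MARCM model below). That change was known when the list was made. Their values in that comparison and in those libraries are therefore given as a description with no test, and the 9 genes are tested only in comparisons of other libraries.

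Fatty acid synthases build long chain fatty acids from acetyl-CoA and malonyl-CoA. Elongases of the ELOVL family, which sit in the endoplasmic reticulum, catalyse the first, condensing step of each round that lengthens an acyl-CoA by a pair of carbons, and a ketoreductase, a dehydratase and an enoyl reductase complete the round. Fatty acyl-CoA reductases turn the resulting acyl-CoA into alcohols, which enter waxes and other surface lipids. In flies these pathways are best known from oenocytes, fat body, trachea and the germ line: bond is required for cytokinesis of spermatocytes and for a male pheromone, and FASN3 is required for watertight tracheae.

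The study measured gene expression in whole eye-antennal discs, sheets of larval tissue from which the adult eye and antenna develop, in which the Hippo pathway coactivator Yki was made hyperactive in 3 models. Each library was made from at least 30 pooled discs dissected 5 days after egg laying from larvae raised at 25°C. In the eyFLP model, eye-specific FLP recombinase made clones homozygous for wts149, an allele of the kinase gene wts, in discs heterozygous for a cell-lethal FRT82B chromosome (eyFLP wts-, 2 libraries); eyFLP ctrl discs carried the same cell-lethal chromosome over FRT82B without wts149 (3 libraries). In the optix model, optix-Gal4 drove UAS-yki3SA, a Yki form less open to inhibitory phosphorylation (2 libraries), or UAS-lucRNAi as the control (3 libraries). In the MARCM model, which gives a Gal4 driver and GFP only to mitotic clones, there were MARCM ctrl (7 libraries), MARCM yki3SA (6), MARCM sd- with the sd47M allele of the DNA-binding partner gene sd (5), and MARCM yki3SA sd- (5). Sequencing run 1 held 5, 5, 3 and 3 of these, with FRT19A clones, ey-FLP and an Act 5C flip-out Gal4. Run 2 held 2, 1, 2 and 2, and there the ctrl and yki3SA clones were made with FRT42D and tub-Gal4, while the sd- and yki3SA sd- clones had the run 1 genotypes. In run 2, differences between sd- and ctrl or yki3SA libraries are thus also differences of driver and chromosome arm, which cannot be told apart.

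Levels are CPM, counts scaled to library size with TMM normalization. Libraries held 4874192 to 19128356 counts, so that 1 count was worth 0.0325 to 0.213 CPM. In these bulk libraries, fewer cells of a type and less RNA per cell cannot be told apart. yki stood at 2119 CPM in the single run 2 yki3SA library against 42.9 to 77.4 CPM in the 5 of run 1, and at 2.55 to 9.75 CPM in the run 1 yki3SA sd- libraries; run 1 ctrl held 19.1 to 58.9 CPM, so these yki tags do not separate run 1 ctrl from yki3SA. In the optix model yki stood at 11.1 and 52.2 CPM in yki3SA and at 0 to 19.6 CPM in ctrl, which overlapped as well. wts stood at 252 ± 20.5 CPM in eyFLP wts- (SD, n = 2) and 168 ± 7.60 CPM in ctrl (n = 3), and sd at 322 ± 48.1 CPM in run 1 sd- (n = 3) and 422 ± 32.7 CPM in ctrl (n = 5). Whether the mutant alleles remove the counted 3' tag is not stated, so these levels do not check the labels. The 10 eye-antennal disc markers (eya, so, ey, toy, dac, elav, ato, gl, sens, Dll) were all detected. Their summed level was lower wherever Yki was hyperactive with sd present, at 381 to 449 CPM in run 1 MARCM yki3SA against 1310 to 1436 CPM in ctrl, at 362 to 467 against 1470 to 1596 CPM in eyFLP wts-, and at 923 to 989 against 1386 to 1479 CPM in optix yki3SA. Of the 4 oenocyte markers, CG18609 was at 0 in every library. The mean of Cyp4g1 was at most 0.123 CPM in each group and run except run 2 sd- (9.25 CPM) and yki3SA sd- (3.06 CPM). With svp and drm, which were expressed, the 4 summed to between 70.5 CPM (optix ctrl) and 268 CPM (run 1 MARCM yki3SA) in a library. In MARCM yki3SA against ctrl, only 2 of the 4 were tested, of which 1 was called raised and 1 lowered. Whether these shifts of composition contribute to the results below was not tested.

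Of the 9 genes, 6 lie in 3 adjacent pairs with no annotated gene between them (dm6 coordinates). bond (chromosome 3R, 22550680 to 22556494, plus strand) and CG5278 (3R, 22558342 to 22562572, minus strand) converge, with 1847 bases between their ends. CG8306 (2R, 16589518 to 16594646, minus strand) follows CG8303 (2R, 16595028 to 16604373, minus strand) after 381 bases. CG31522 (3R, 4441415 to 4462883, minus strand) follows CG31523 (3R, 4465421 to 4479207, minus strand) after 2537 bases. The remaining genes stand apart: CG17374 at 3L, 25752859 to 25762779, Baldspot at 3L, 16648442 to 16661615, and CG2781 at 3R, 7981817 to 7995852, all on the minus strand. bond, CG8303, CG31522 and Baldspot overlap another annotated gene, and no source used here says whether counting used strand. The genes that overlap bond (CR44062) and CG8303 (CG5089) held at most 9 and 4 counts summed over a group, while CR43629, which overlaps CG31522, held means of 0.494 to 13.96 CPM.

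**Figure D1:**
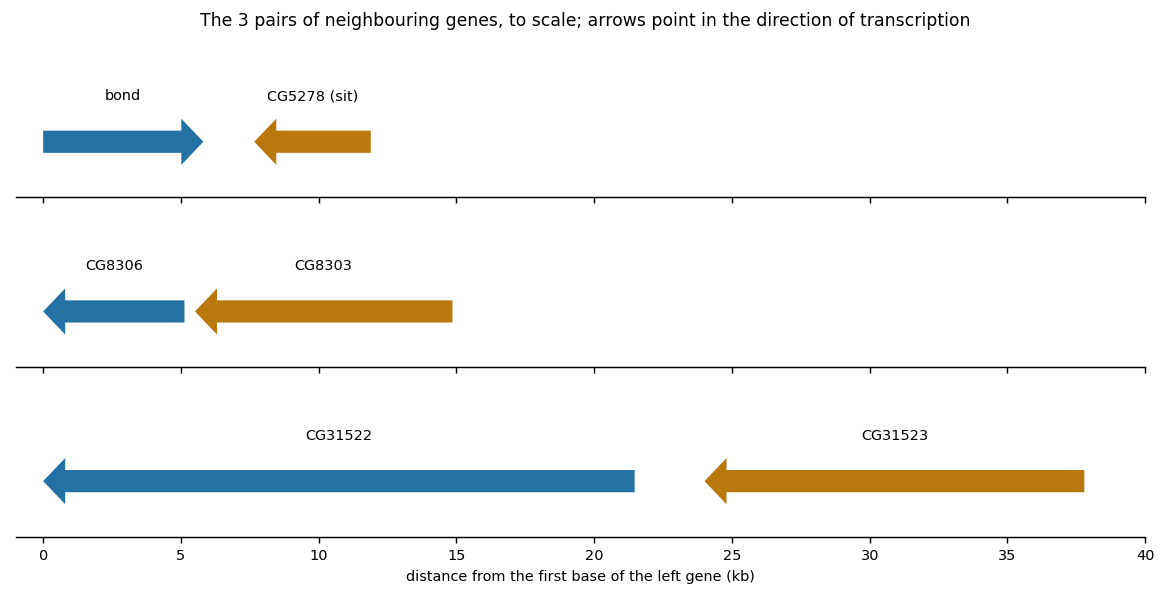
The 3 pairs of adjacent genes drawn to scale, with distance in kb from the first base of the left gene on the x axis and arrows pointing in the direction of transcription. The gaps are 1847, 381 and 2537 bases, and only bond and CG5278 face each other.

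In the whole discs of the MARCM model, 4 genes were nearly silent in ctrl libraries and were high with yki3SA. They were the elongase genes bond and CG5278, the synthase gene CG17374 and the reductase gene CG8303. With sd mutant in the same clones, all 4 stood below every yki3SA library of the same run. The yki3SA sd- libraries also held less yki than yki3SA, at means of 5.72 against 52.9 CPM in run 1. In run 2 the levels were 105 against 2119 CPM, and there driver and chromosome arm differed too. The parts of these differences were not tested. Of the other 5 genes, CG8306, CG31522, CG31523 and Baldspot were well expressed in ctrl libraries and shifted less, and CG2781 was lower with yki3SA. These are the values that chose the genes, so they are given here for each library without a test.

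bond stood at 0.19, 2.32, 1.11, 1.19 and 1.16 CPM in the 5 run 1 ctrl libraries and at 21.5, 22.6, 27.7, 12.05 and 17.8 CPM in the 5 run 1 yki3SA libraries. In run 2 it stood at 0.875 and 2.21 CPM in ctrl and at 131 CPM in yki3SA. In sd- it lay between 0.664 and 2.06 CPM over both runs, and in yki3SA sd- at 0, 2.13 and 2.70 CPM in run 1 and 4.33 and 5.09 CPM in run 2. Every yki3SA library was thus above every other MARCM library, and the run 2 yki3SA sd- libraries were above every ctrl and sd- library. The eyFLP and optix libraries held 0.0999 to 1.73 CPM, below the highest MARCM control. In the order of the 12 group and run means, run 2 yki3SA, run 1 yki3SA and run 2 yki3SA sd- came first without overlap, and below these each mean's range overlapped the next.

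CG5278, the gene next to bond, had 4 counts in all over the 5 run 1 ctrl libraries, with 0 in 2 of them, and 45 to 181 counts in each run 1 yki3SA library, or 16.7, 9.57, 8.65, 8.01 and 7.01 CPM. In run 2 it stood at 0.236 and 0.358 CPM in ctrl and at 14.0 CPM in yki3SA, inside the run 1 yki3SA range. In yki3SA sd- it stood at 0.58, 4.46 and 0.588 CPM in run 1 and at 0.0346 and 0.178 CPM in run 2. The yki3SA libraries did not overlap any other group, and 1 of the 5 yki3SA sd- libraries (4.46 CPM, 21 counts) stood between.

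CG17374, which encodes the synthase FASN3, had 0 to 5 counts in each run 1 ctrl library (at most 0.555 CPM) and stood at 16.9, 9.93, 9.998, 12.4 and 21.9 CPM in run 1 yki3SA. Its run 1 yki3SA sd- libraries held 0.58, 0 and 0.353 CPM. In run 2 the picture differed: ctrl held 1.35 and 2.15 CPM, sd- 1.75 and 3.79 CPM, yki3SA 22.5 CPM, and yki3SA sd- 5.40 and 11.1 CPM. The run 2 yki3SA sd- libraries did not overlap the run 2 sd- libraries, and the upper one lay within the range of run 1 yki3SA.

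CG8303 stood at 0.855, 1.09, 0.999, 0.667 and 1.26 CPM in run 1 ctrl and at 30.7, 32.0, 37.3, 33.9 and 48.1 CPM in run 1 yki3SA. In run 2 it stood at 2.59 and 3.97 CPM in ctrl and at 374 CPM in the yki3SA library. In sd- it held 1.22, 1.41 and 0 CPM in run 1 and 2.47 and 2.70 CPM in run 2, and in yki3SA sd- it held 0.232, 0 and 0.47 CPM in run 1 and 2.01 and 1.78 CPM in run 2. Within each run, every yki3SA sd- library lay below every ctrl library. In the order of means, both yki3SA runs were followed by eyFLP wts-, at 7.03 and 8.59 CPM, which overlapped no other group.

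**Figure D2:**
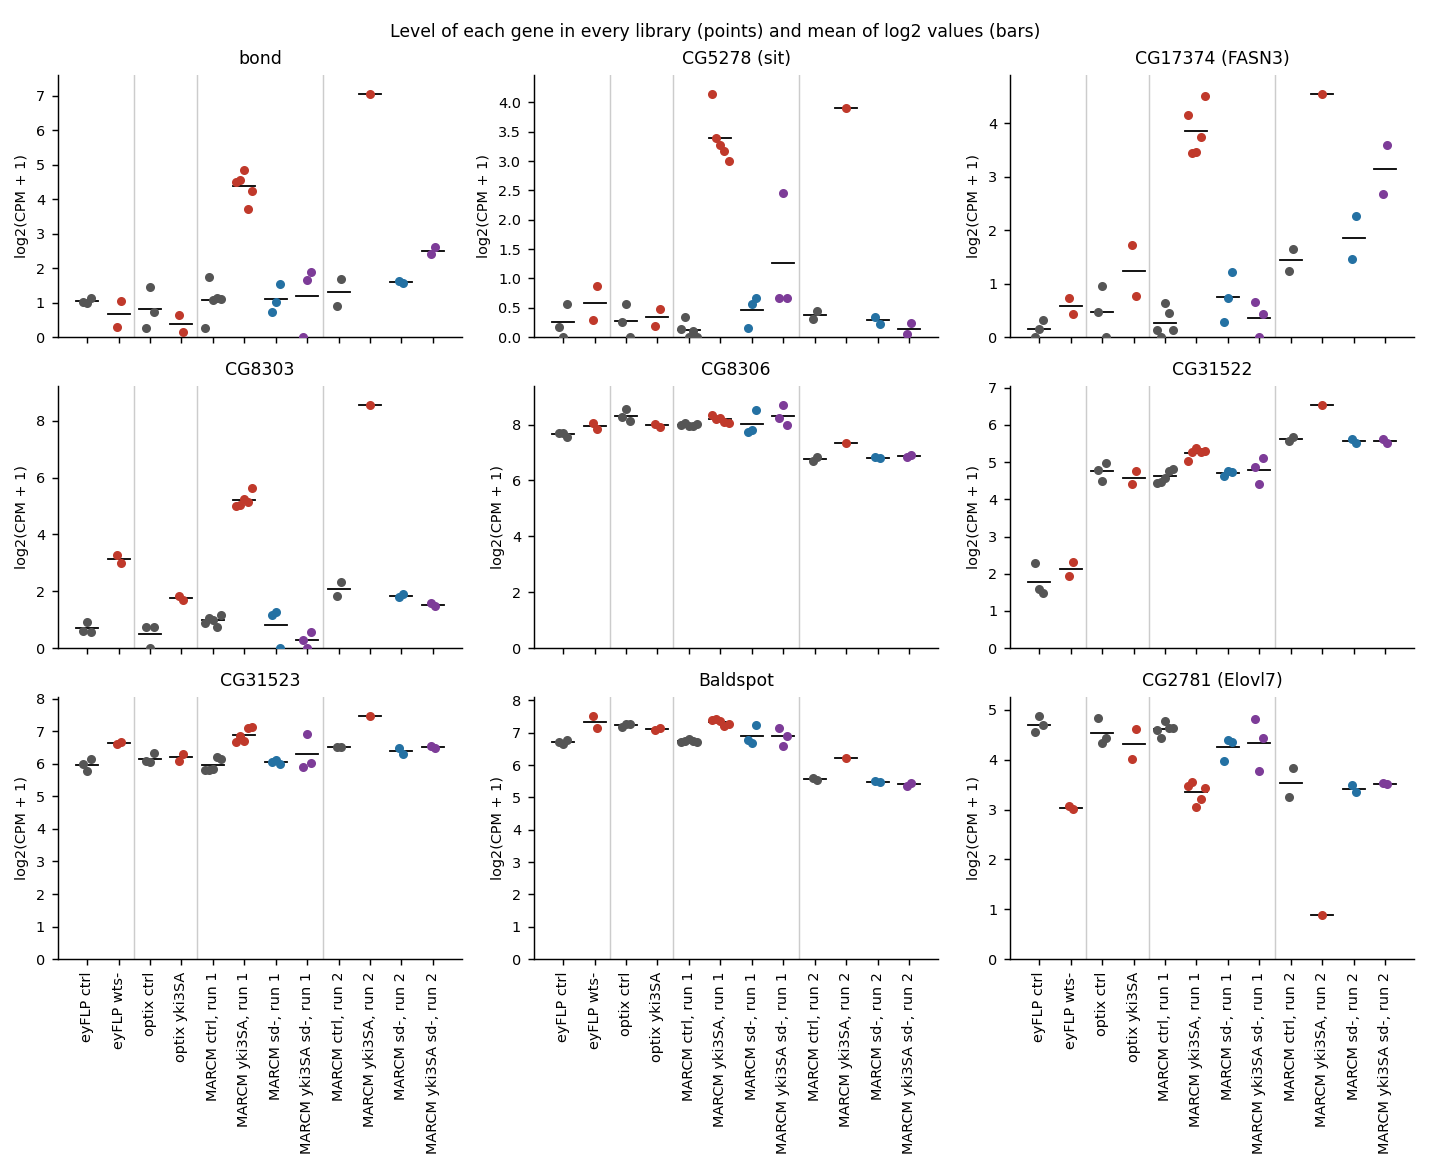
Level of each gene as log2(CPM + 1) on the y axis in each of the 33 libraries (points), by group and sequencing run on the x axis, with bars at the mean of the log2 values; the y axis scale differs between panels. bond, CG5278, CG17374 and CG8303 are highest in MARCM yki3SA, CG8303 is next highest in eyFLP wts- and CG17374 in run 2 yki3SA sd-, and CG31522 is low in all 5 eyFLP libraries.

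CG8306, the reductase gene next to CG8303, was abundant throughout, at 102 to 415 CPM. In run 1 ctrl it stood at 247 to 268 CPM and in run 1 yki3SA at 263 to 326 CPM, with overlap. In run 2 it stood at 102 and 112 CPM in ctrl and 159.7 CPM in yki3SA. The large difference of CG8303 was thus not shared by its neighbour, whose mean in yki3SA was 1.14 times that in ctrl in run 1.

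Of the broadly expressed elongase genes, CG31523, which lies next to CG31522, stood at 54.6 to 73.3 CPM in run 1 ctrl and at 102 to 138 CPM in run 1 yki3SA, and at 89.96 and 89.7 CPM against 176 CPM in run 2. CG31522 stood at 20.8 to 27.2 CPM against 31.5 to 40.4 CPM in run 1, and at 46.9 and 50.3 CPM against 91.8 CPM in run 2. Baldspot, an ELOVL6-type elongase gene, stood at 103 to 109.8 CPM against 147 to 171 CPM in run 1, and at 47.2 and 45.6 CPM against 73.3 CPM in run 2. None of these ctrl and yki3SA ranges overlapped within a run, although Baldspot was lower in all run 2 groups than in any run 1 group.

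CG2781, an ELOVL7-type elongase gene, went the other way. It stood at 20.6 to 26.3 CPM in run 1 ctrl and at 7.31 to 10.7 CPM in run 1 yki3SA, and at 8.52 and 13.2 CPM against 0.839 CPM in run 2. In yki3SA sd- it stood at 27.0, 12.8 and 20.6 CPM in run 1 and at 10.6 and 10.4 CPM in run 2, overlapping ctrl.

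CG31522 was unlike its neighbour in a second way. All 5 eyFLP libraries, control and mutant, held 1.81 to 3.98 CPM of it, against 20.3 to 91.8 CPM in the other 28 libraries, while CG31523 stood at 54.2 to 100.4 CPM in the same eyFLP libraries. The low level was common to both eyFLP groups, which share the cell-lethal FRT82B chromosome, and its cause was not tested.

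Fitted over both runs of the MARCM model (log2 fold change ± approximate SE, described only), yki3SA minus ctrl was 5.78 ± 0.34 for CG8303, 5.76 ± 0.72 for CG5278, 5.58 ± 0.57 for CG17374 and 4.84 ± 0.50 for bond. It was 0.99 ± 0.15 for CG31523, 0.75 ± 0.11 for CG31522, 0.65 ± 0.11 for Baldspot, 0.32 ± 0.13 for CG8306 and -1.53 ± 0.27 for CG2781. The 2 runs gave 4.14 and 6.27 for bond, 6.77 and 5.40 for CG5278, 5.87 and 3.55 for CG17374, 5.25 and 6.70 for CG8303, and -1.32 and -3.82 for CG2781, so the direction was shared and the size was not. The median of the 9 was 0.99, against 0.08 over all 8927 genes tested. The 9 were chosen by this same change, so the difference of the medians is no evidence about them as a group.

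Fits of yki3SA sd- minus yki3SA, which share the yki3SA libraries and are likewise described only, gave -6.97 ± 0.44 for CG8303, -3.94 ± 0.55 for bond, -3.77 ± 0.61 for CG17374, -3.66 ± 0.74 for CG5278 and 1.44 ± 0.29 for CG2781. CG17374 gave -5.24 in run 1 and -1.30 in run 2. For CG31522, CG31523 and Baldspot the values were -0.60 ± 0.13, -0.68 ± 0.16 and -0.56 ± 0.12, and for CG8306 -0.01 ± 0.15. The yki3SA sd- and yki3SA groups also differed in yki level, and in run 2 in driver and chromosome arm. These fits therefore do not isolate loss of sd. Fits of sd- minus ctrl lay between -0.29 and 1.05 for the 9 genes, with 95% confidence intervals that all included 0.

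Loss of wts raised the reductase gene CG8303 and the elongase genes CG31523 and Baldspot, and lowered the elongase gene CG2781. CG8303 stood at 0.517, 0.89 and 0.483 CPM in eyFLP ctrl and at 8.59 and 7.03 CPM in eyFLP wts-. The groups did not overlap, and the log2 fold change was 3.55 ± 0.39 (adjusted p = 2.48e-07, edgeR quasi-likelihood F test). Baldspot stood at 105, 99.4 and 109 CPM against 182 and 142 CPM, a log2 fold change of 0.60 ± 0.10 (edgeR adjusted p = 0.000128), and CG31523 at 62.1, 54.2 and 70.2 CPM against 97.0 and 100.4 CPM, 0.63 ± 0.15 (edgeR adjusted p = 0.00362). CG2781 stood at 22.5, 28.4 and 24.8 CPM against 7.38 and 7.03 CPM, -1.84 ± 0.22 (edgeR adjusted p = 9.59e-07). For each of the 4, the 2 wts- libraries lay on one side of the 3 control libraries.

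Thus 3 of 9 genes were raised by loss of wts and 1 was lowered, beside 10.6% of 8693 genes raised and 13.5% lowered. The median of the 9 was 0.60, and that of all genes tested -0.01. Of the 9, bond, CG5278 and CG17374 did not pass the filter on low counts in the eyFLP or optix libraries alone. Each of these sets keeps 6 of the 9. These genes passed only in the joint fit, which also holds run 1 MARCM ctrl and yki3SA libraries. They are high in the yki3SA libraries, so the counts and medians of the 9 support nothing by themselves. bond, which was high in MARCM yki3SA, stood at 1.03, 1.00 and 1.21 CPM in eyFLP ctrl and at 0.22 and 1.05 CPM in wts- (-0.80, 95% confidence interval -2.58 to 0.97, edgeR adjusted p = 0.568). CG5278 had 0 to 4 counts in a control library and 2 and 7 in wts-, and CG17374 had 0 to 2 and then 6 and 3. Neither was called (edgeR adjusted p = 0.429 and 0.281), and the interval of CG17374, -0.61 to 4.49, held the value found for CG8303. CG8306 (0.25 ± 0.12, edgeR adjusted p = 0.158) and CG31522 (0.39 ± 0.29, edgeR adjusted p = 0.4) did not pass. Without eyFLP ctrl replicate 1, CG31522 gave 0.80 and an edgeR adjusted p of 0.0498.

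Among trachea markers, the summed level of 6 genes rose with the same samples, from 772 to 824 CPM in eyFLP ctrl to 1670 to 1830 CPM in wts-, with 2 called raised, while the tracheal receptor gene btl stood at 1.01 CPM on average against 0.733 CPM. The part of these in the result was not tested.

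In the optix model, yki3SA raised CG8303 and lowered its neighbour CG8306. CG8303 stood at 0.666, 0 and 0.653 CPM in optix ctrl and at 2.58 and 2.20 CPM in optix yki3SA, 2.22 ± 0.46 (edgeR adjusted p = 0.00133), with no overlap. CG8306 stood at 306, 379 and 277 CPM against 257 and 243 CPM, -0.38 ± 0.12 (edgeR adjusted p = 0.0329). The change of CG8303 rests on 0 to 7 counts in a control library and on 19 and 22 in a yki3SA library. Fitted to the 5 optix libraries alone, neither gene passed: CG8303 gave 2.27 (edgeR adjusted p = 0.215) and CG8306 -0.40 (edgeR adjusted p = 0.305). CG8306 also lost its call without optix yki3SA replicate 1, where it gave -0.42 (edgeR adjusted p = 0.051), without optix yki3SA replicate 2, where it gave -0.32 (edgeR adjusted p = 0.236), and without optix ctrl replicate 2, where it gave -0.25 (edgeR adjusted p = 0.182).

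This was 1 of 9 genes raised and 1 lowered, near the background of 9.02% raised and 10.5% lowered among 8693 genes. The median of the 9 was -0.15, against 0.03 over all genes tested. CG17374 stood at 0.381, 0.945 and 0 CPM in optix ctrl and at 2.31 and 0.70 CPM in yki3SA, with overlap (1.81, interval 0.06 to 3.57, edgeR adjusted p = 0.128). bond had 2, 11 and 6 counts in ctrl and 4 and 1 in yki3SA (edgeR adjusted p = 0.376), and CG5278 had 0 to 3 and then 1 and 4 (edgeR adjusted p = 0.801). CG31522 (-0.22 ± 0.21), CG31523 (0.01 ± 0.16), Baldspot (-0.15 ± 0.11) and CG2781 (-0.25 ± 0.20) did not pass, with edgeR adjusted p from 0.348 to 0.961. For Baldspot and CG31523 the upper ends of the intervals, 0.08 and 0.35, lay below the values of 0.60 and 0.63 seen with loss of wts. The intervals with loss of wts were 0.38 to 0.83 for Baldspot and 0.30 to 0.96 for CG31523. The intervals of the models thus overlapped for CG31523 and not for Baldspot, and the difference between the models was not tested.

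**Figure D3:**
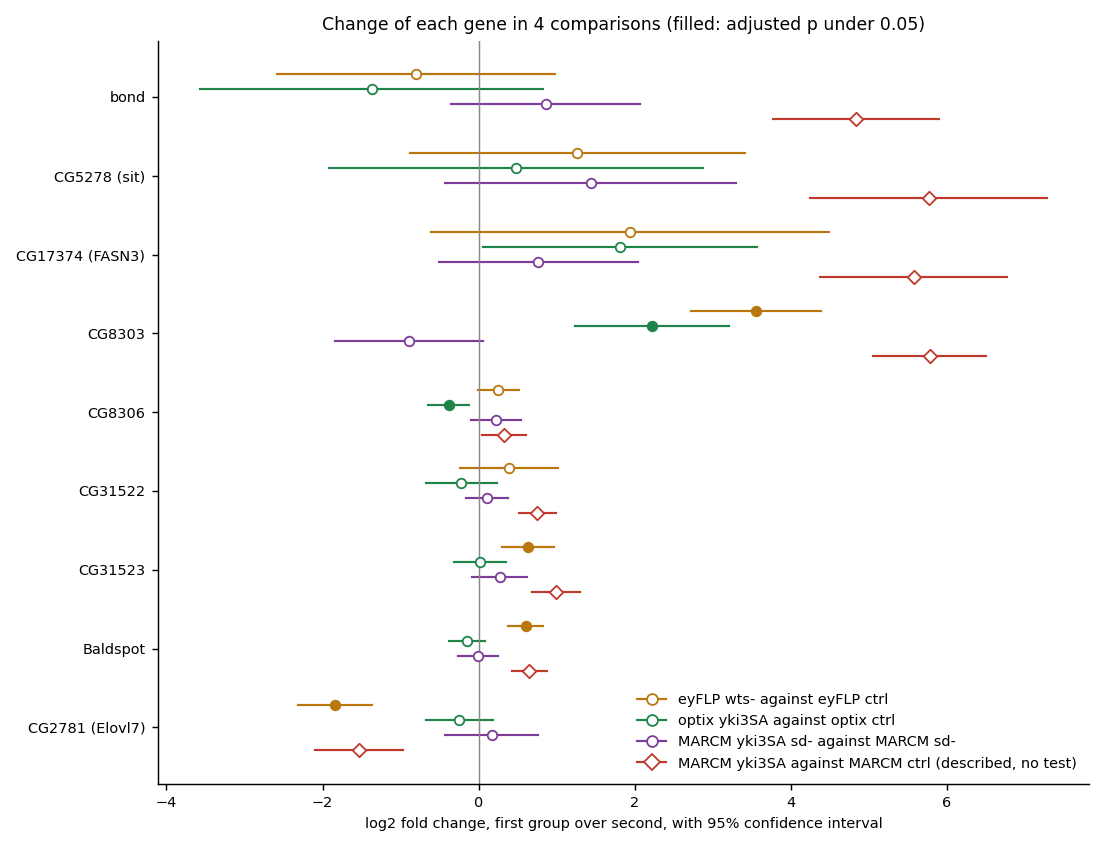
log2 fold change of each gene, first group over second, with its 95% confidence interval on the x axis, in 4 comparisons; filled circles passed an edgeR adjusted p of 0.05, and open diamonds are the MARCM comparison that chose the genes. CG8303 is raised in eyFLP wts- (3.55) and optix yki3SA (2.22), and no gene passed in yki3SA sd- against sd-.

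With sd mutant in the clones, none of the 9 genes was called between yki3SA sd- and sd- by the edgeR quasi-likelihood F test, and none had an unadjusted p under 0.05. All 4 genes that were high in MARCM yki3SA had wide intervals: bond 0.86 ± 0.58 (edgeR adjusted p = 0.333), CG5278 1.43 ± 0.88 (0.294), CG17374 0.76 ± 0.61 (0.413) and CG8303 -0.89 ± 0.45 (0.223). CG5278 passed the filter on low counts here only through the other MARCM libraries; the yki3SA sd- and sd- libraries alone keep 8 of the 9. For CG8303 the upper end of the interval was 0.05, and for bond, CG17374 and CG5278 it was 2.07, 2.04 and 3.29. The other 5 genes lay between -0.01 and 0.27, with edgeR adjusted p from 0.293 to 0.958. CG17374 gave -0.92 in run 1 and 1.61 in run 2, and CG5278 2.16 and -1.02, and none of the 9 was called in either run alone where it could be fitted, by DESeq2 or by limma-voom.

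Few genes of any kind passed in this comparison: 0.0336% of 8927 were raised and 0.101% lowered, which is 3 and 9 genes, while 1184 and 931 had an unadjusted p under 0.05. That count depended on the run, with 1429 genes called in run 1 alone and 331 in run 2 alone. Within these 2 groups, run 1 libraries also differed most between replicates. Chi-square per degree of freedom between 2 libraries reached 226 in yki3SA sd- and 102 in sd-, against at most 43.2 in other groups. The run 1 libraries labelled yki3SA sd- held less yki than the run 1 sd- libraries on average (5.72 against 44.1 CPM). Their ranges overlapped, at 2.55 to 9.75 CPM against 1.32 to 67.3 CPM (median 63.5 CPM). The run 1 sd- library at 1.32 CPM lay below every run 1 yki3SA sd- library. In run 2, the yki3SA sd- libraries held more yki than the sd- libraries (105 against 64.6 CPM). The part of these yki levels in the result was not tested.

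Over the 12 means of group and run, log2(CPM + 1) of bond correlated with that of CG5278 (r = 0.90), CG17374 (0.90) and CG8303 (0.90), and negatively with CG2781 (-0.84). These are descriptions of 12 points dominated by the 2 yki3SA means that chose the genes, and the points share libraries. The adjacent genes differed: bond and CG5278 gave 0.90, CG31522 and CG31523 0.47, and CG8303 and CG8306 -0.18. CG8306 was instead most like Baldspot among the 9 (r = 0.95), and both stood lower in run 2 than in run 1.

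Among the 6948 other genes that reached a mean of 10 CPM in any of the 12, the transcription factor gene trachealess (trh) was the most like bond (r = 0.97) and the most like CG17374 (r = 0.96). trh stood at 0.755 ± 0.856 CPM in run 1 ctrl (SD, n = 5), 12.1 ± 1.90 CPM in run 1 yki3SA (n = 5), 0.351 ± 0.353 CPM in run 1 yki3SA sd- (n = 3) and 41.0 CPM in the run 2 yki3SA library. After trh came esn and Cip4 for bond (both 0.95), and CG43980 (0.94) and CG43102 (0.93) for CG17374. The genes most like CG5278 were CG3104 and Spn27A (both 0.97) and CG32444 (0.95). Those most like CG8303 were CG6398 (0.99), CG14608 and CG1732 (both 0.98), and CG6398 stood at 156 ± 6.92 CPM in run 1 ctrl, 421 ± 35.05 CPM in run 1 yki3SA and 246 ± 5.46 CPM in eyFLP wts- (n = 2).

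trh is a defining gene of the trachea. In run 1, the summed level of the 6 trachea markers was 687 to 1006 CPM in ctrl and 2129 to 2767 CPM in yki3SA. In run 1 yki3SA sd- it was 699 to 908 CPM. In run 2 it was 1425 to 1558 CPM in ctrl and 4694 CPM in the yki3SA library. The run 2 yki3SA sd- libraries held 1639 to 1992 CPM, above ctrl, and sd- held 1504 to 1823 CPM. trh itself averaged 4.18 CPM in run 2 yki3SA sd-, against 2.02 CPM in sd- and 1.51 CPM in ctrl. In MARCM yki3SA against ctrl, 3 of the 6 were called raised and 2 lowered. The tracheal receptor gene btl stood at 1.57 ± 0.893 CPM in run 1 ctrl and 0.478 ± 0.221 CPM in run 1 yki3SA, and tnc at 111 ± 34.7 against 30.9 ± 12.98 CPM, while serp stood at 390 ± 42.7 against 1504 ± 132 CPM. None of the 6 was at 0 in every library of a group. The part of tracheal RNA in the levels of the 4 genes was not tested.

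Lists of other genes of the lipid pathways cover 72 further genes. The lists were chosen with earlier results of these data known. Shares of the listed genes set beside those of all genes are therefore descriptions only. In eyFLP wts-, 35 of the 72 were tested and 9 rose, beside 10.6% of all genes, while 4 fell, a smaller share than the 13.5% of all genes. Their median was 0.14, and that of all genes -0.01. Fatty acid synthesis held 4 of the 9, of 6 tested. AcCoAS, which makes acetyl-CoA from acetate, rose from 4.82 ± 0.723 to 39.997 ± 1.37 CPM (3.02 ± 0.32, edgeR adjusted p = 1.59e-07). The synthase gene CG3523 (FASN1) rose from 34.6 ± 7.36 to 139 ± 4.18 CPM (1.97 ± 0.18, edgeR adjusted p = 1.2e-08). ACC, which makes malonyl-CoA (1.03 ± 0.20), and HLH106, which encodes the lipid regulator SREBP (0.82 ± 0.14), were the others. The desaturase genes CG9747 (2.37 ± 0.34) and Desat1 (0.83 ± 0.14) rose, as did the single other elongase gene tested, CG5326 (1.26 ± 0.15), the ceramide desaturase gene ifc (0.63 ± 0.16) and the acyl-CoA oxidase gene CG9527 (0.65 ± 0.19).

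The 4 that fell with loss of wts were the reductase family gene CG5065 (78.3 ± 38.3 to 3.70 ± 1.92 CPM, -4.42 ± 0.59), the acyl-CoA oxidase family gene CG4586 (-3.11 ± 0.58), the elongation ketoreductase gene CG1444 (now spidey, -2.40 ± 0.35) and the acyl-CoA synthetase gene pdgy (-1.02 ± 0.25). The reductase family was thus split, with CG8303 raised and CG5065 lowered. The other 3 elongation cycle genes did not pass.

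In the optix model, 3 of 35 tested pathway genes rose and 2 fell, no larger a share than the 9.02% and 10.5% of all genes. Their median was 0.17, and that of all genes 0.03. CG5065 fell from 96.1 ± 55.4 to 18.0 ± 4.78 CPM (-2.45 ± 0.50, edgeR adjusted p = 0.00205), and the reductase family gene CG30427 fell by 2.72 ± 0.85 from a mean of 1.199 CPM. Desat1 (0.57 ± 0.14), CG5326 (0.44 ± 0.15) and the reductase family gene CG12268 (1.06 ± 0.34) rose. None of the 6 fatty acid synthesis genes passed. All 5 calls were lost when the 5 optix libraries were fitted alone, where 554 genes were called in all, and without optix yki3SA replicate 2, where 818 were, against 1699 here.

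In the MARCM comparison of yki3SA with ctrl, 16 of 39 tested pathway genes rose and 6 fell, against 17.3% of 8927 genes raised and 17.1% lowered. With upper-quartile scaling, which moved the median of all genes from 0.08 to -0.03, 1107 genes were called raised and 1791 lowered, in place of 1542 and 1528. The same 4 fatty acid synthesis genes were called as with loss of wts: AcCoAS (2.14 ± 0.30), CG3523 (1.23 ± 0.16), HLH106 (0.81 ± 0.10) and ACC (0.63 ± 0.13). CG5326 rose from 43.5 ± 4.53 to 121 ± 20.4 CPM in run 1 (2.11 ± 0.37, edgeR adjusted p = 7.53e-05). CG5065 (-2.41 ± 0.27), CG1444 (-1.89 ± 0.24), CG4586 (-2.89 ± 0.49) and pdgy (-1.43 ± 0.24) fell, as with loss of wts. Of the 5 ceramide genes 4 were called raised, among them ifc (1.02 ± 0.14) and Spt-I; Spt-I was at 0 in all 26 run 1 libraries, and its call rests on run 2, at 80.0 CPM in the yki3SA library and 37.8 ± 1.00 CPM in ctrl (n = 2). With run 1 alone, 14 pathway genes were called in place of 22.

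In yki3SA sd- against sd-, none of the 39 tested pathway genes was called by edgeR, with a median of -0.01 against -0.03 over all genes, and 5 were called in run 1 alone and 2 in run 2 alone. The other 13 of the 14 further elongase genes, eloF among them, were too low to be tested in either fit.

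**Figure D4:**
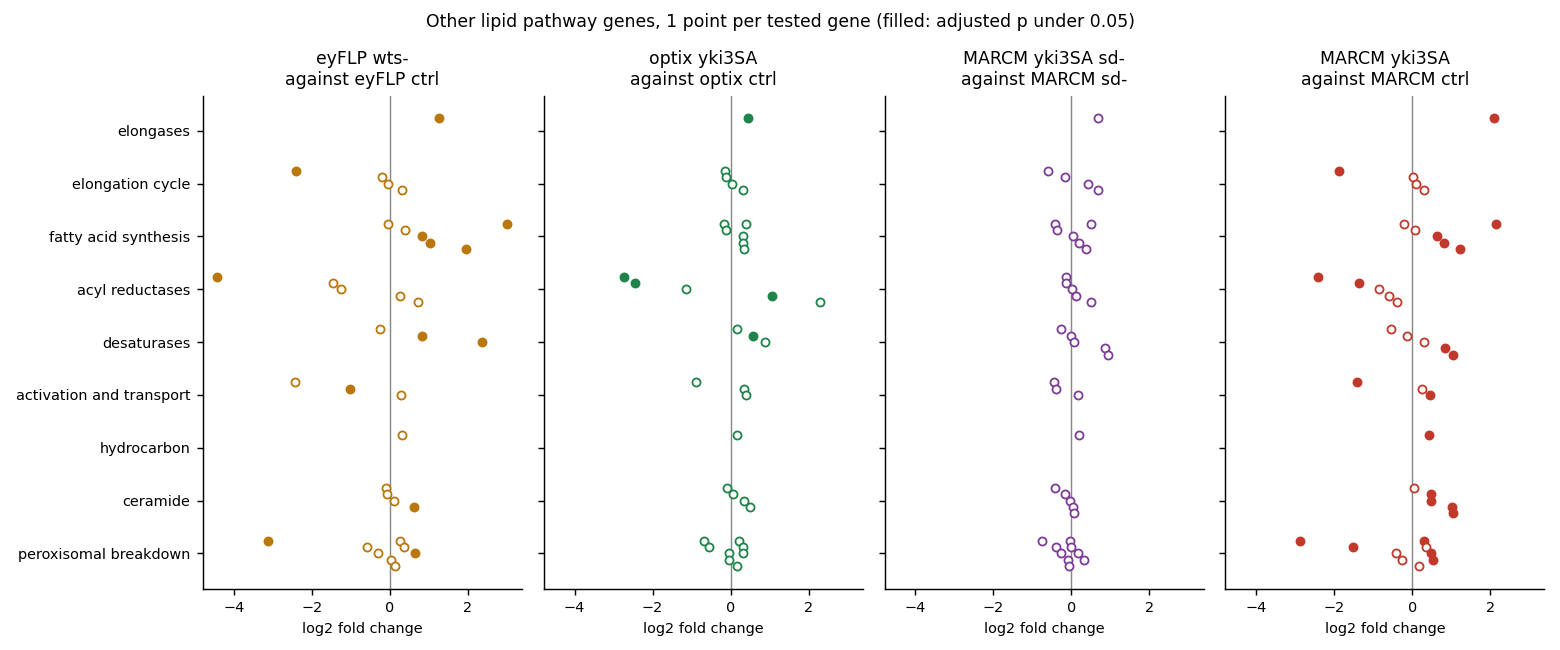
log2 fold change (x axis) of every tested gene of the other lipid pathway lists (y axis, 1 point per gene) in 4 comparisons; filled points passed an edgeR adjusted p of 0.05. In eyFLP wts- and in MARCM yki3SA, 4 of the 6 tested fatty acid synthesis genes are filled and lie to the right. No point is filled in yki3SA sd- against sd-.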

How the data were processed

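Whole eye-antennal discs were profiled with QuantSeq 3' mRNA-Seq (forward), per the labels' protocols, a method that reads 1 tag near the 3' end of a transcript. Per the submitters' processing notes, the tools were FastQC, cutadapt and STAR 2.6.1d, with genome build dm6; no source used here names the counter, its use of strand or the annotation. The authors deposited raw counts per gene and library, with no normalization. Run 1 MARCM ctrl and yki3SA libraries are in both tables used.

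Counts were tested with the edgeR 4.0.16 quasi-likelihood F test (robust; R 4.3.3), with filterByExpr, TMM scaling and Benjamini-Hochberg adjustment over all genes tested; genes were called at an adjusted p under 0.05. The eyFLP and optix comparisons came from 1 fit of 20 libraries (8693 genes), and the MARCM comparisons from 1 fit of 23 libraries with the run as a term (8927 genes); run 2 has 1 yki3SA library, whose spread was taken from the other groups. Standard errors are the log2 fold change over the root of F, and are approximate. CPM come from TMM factors over all 33 libraries. The members and gene lists were chosen with earlier results of these data known. Named genes are all 9 members, up to 2 called genes per pathway list and comparison by size of change (others of the same list were named after their values were seen), and the 3 genes most like each of 4 members over 12 group-by-run means. Of 73 listed pathway symbols, 72 were matched, 6 through synonyms. Positions are from the Ensembl dm6 annotation.

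Libraries of a group differed beyond sampling noise (lowest chi-square per degree of freedom 2.20). The highest values were 94.9 to 226 between run 1 yki3SA sd- libraries, and 102 between run 1 sd- replicate 3 and replicates 1 and 2. Nothing says that replicates came from separate cultures of larvae beyond their separate pools of discs, so p-values measure the spread between these libraries. Same-numbered run 1 MARCM ctrl and yki3SA libraries deviated together (correlations 0.318 to 0.739), while those of the other comparisons did not (-0.623 to 0.168). Differently numbered libraries were not compared in this way, so whether the numbers mark pairs was not tested. Alternatives were RLE and upper-quartile scaling, no filter, DESeq2 1.42.0, limma-voom (limma 3.58.1), the compared libraries alone, single runs, a replicate block, and each library left out; run 2 alone was chosen after seeing the data. The fits were tested on simulated data.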

Additional observations from a re-analysis of the deposited data

Results flagged for a closer look

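In 36 sets of 5 to 7 libraries of a gene and label group, 6 held a library far from the others. The 95% critical value of Dixon's test served only as a flag here. The sets pool both runs of the MARCM model, and the ctrl and yki3SA values chose the genes, so no rate by chance applies. Of these, 5 were the run 2 MARCM yki3SA library against 5 libraries of run 1: bond at 131 CPM, CG8303 at 374 CPM, CG31522 at 91.8 CPM, Baldspot at 73.3 CPM and CG2781 at 0.839 CPM. This library is the only 1 with yki3SA under tub-Gal4 and held 2119 CPM of yki; the parts of driver, run and yki level cannot be told apart. The other was CG5278 at 4.46 CPM in run 1 MARCM yki3SA sd- replicate 2, the library with the fewest counts (4874192).

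For 5 genes the libraries of 2 comparisons lay on opposite sides of their control means, a difference that was not tested. The MARCM yki3SA side belongs to the values that chose the genes. For bond, CG8306, CG31522 and Baldspot, every MARCM yki3SA library lay above the control mean of its run. Both optix yki3SA libraries lay below the optix control mean (log2 fold change -1.37 for bond, -0.38 for CG8306, -0.22 for CG31522 and -0.15 for Baldspot). Of these only CG8306 passed the test in the optix model. The 95% confidence intervals of bond (-3.56 to 0.82), CG31522 (-0.68 to 0.23) and Baldspot (-0.38 to 0.08) included 0. CG8303 lay above the control mean in every MARCM yki3SA library and below the sd- mean of its run in every yki3SA sd- library (-0.89).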

How the results depend on the processing

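With loss of wts, CG8303, CG31523 and Baldspot were raised and CG2781 lowered under all 12 alternatives, and without eyFLP ctrl replicate 1 CG31522 was raised too; leaving out single libraries thus gave 3 to 4 raised, 1 lowered, 1462 to 1844 genes called and 12 to 13 other pathway genes called. In the optix model, the 5 libraries alone gave 0 members raised, 0 lowered, 554 genes and 0 other pathway genes called; no filter gave 2 other pathway genes; leaving out single libraries gave 1 raised, 0 to 1 lowered, 818 to 2199 genes and 0 to 10 other pathway genes. In yki3SA sd- against sd-, no alternative called a member; genes called were 155 with DESeq2, 0 with the compared libraries alone, 1429 with run 1 alone, 331 with run 2 alone and 4 with the replicate block, against 12, and 6 to 31 when single libraries were left out (31 without MARCM yki3SA sd- replicate 3, 6 without MARCM sd- run 2 replicate 1); other pathway genes were 5 with run 1 alone, 2 with run 2 alone and 0 without any single library. In MARCM yki3SA against ctrl, run 1 alone gave 14 other pathway genes and run 2 alone 5452 genes called; leaving out single libraries gave 2657 to 2920 genes and 17 to 22 pathway genes. The replicate block changed no call of the 9 genes; with it, the other pathway genes called in MARCM yki3SA against ctrl were 18.

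Values that changed sign were all of genes that did not pass. In the optix model, CG31523 gave -0.0016 with RLE scaling, -0.0050 with no filter, -0.0015 with DESeq2 and -0.074 to 0.115 when single libraries were left out; CG5278 gave -0.33 with the replicate block and -0.49 to 1.35 without single libraries; CG2781 gave -0.579 to 0.0267 without single libraries. In yki3SA sd- against sd-, Baldspot gave 0.0252 with RLE scaling, 0.027 with DESeq2, 0.0011 with limma-voom, 0.0265 with run 1 alone and -0.12 to 0.11 without single libraries; CG17374 gave -0.92 with run 1 alone; CG5278 gave -1.02 with run 2 alone and -0.13 to 2.03 without single libraries; CG31522 gave -0.0015 to 0.16 without single libraries. The causes were not tested. Of 1225 alternative values of members, 1121 kept direction and call or moved by less than the spread between replicates. In the eyFLP and optix models, bond, CG5278 and CG17374 had 0 to 17 counts per library, so their changes there were measured with little precision.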
